A study of Mus musculus with 20 samples.

Results

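Erythroid genes were followed in RNA-seq of the heart in mice made anemic by an iron-deficient diet. The set held 29 genes of the 23420 in the count table, chosen by gene name. Of these, *Slc4a1*, *Trim10* and *Apol11b* were selected on their large rise in the anemic hearts of these same data, and the other 26 were listed as genes of red cell membranes, heme synthesis, red cell enzymes and erythroid transcription. There was no threshold in the selection. Because the list was drawn up with results of these hearts known, the differences between the diets are given as a description and carry calls but no p-value, whereas relations to *Alas2* among mice of a single diet group were tested.

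All 20 mice were wild type C57BL/6 males (C57BL/6J in the study's methods), 9 weeks old, that had received their diet for 6 weeks from the age of 3 weeks. The 10 control mice were fed a control diet, called iron-adjusted in the study's methods. The 10 iron-deficient and anemic mice (IDA mice) were fed an iron-deficient diet. Its iron content stands in the labels as below 2 ppm in 1 field and above 2 ppm in another. The study's methods give a range that starts at 2 ppm. Each library came from the whole heart of 1 mouse, rinsed in PBS and ground, so that vessels and any blood left in them were included, and the labels give no blood value for any mouse. The study left out 1 contaminated sample per group without naming it in the sources used here, and all 20 libraries were kept. Each library held between 6682177 and 8960688 read pairs assigned to genes (median 7902932 in control and 6806177 in IDA mice). Cardiomyocyte markers were high in both groups, as for *Myh6*, the alpha myosin heavy chain, at 1365 ± 124 CPM (counts scaled to a common library size) in control and 1427 ± 126 CPM in IDA hearts (mean ± SD, n = 10 each). Its counts were nearly constant, at 10172 to 10651 in control and 10013 to 10374 in IDA libraries. Duplicate removal caps counts per base, so these CPM largely follow library size and do not compare the groups.

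Red cells arise in the bone marrow and, in the mouse under anemia, in the spleen, from precursors that respond to erythropoietin through its receptor Epor. The transcription factors Gata1, Tal1 and Klf1 switch on the genes of heme synthesis, hemoglobin and the membrane skeleton, in which band 3 (Slc4a1), ankyrin and spectrin are joined. Reticulocytes, the youngest circulating red cells, have lost the nucleus but still carry erythroid mRNA, so that RNA of a blood-containing organ can include their transcripts. Alas2, the first enzyme of heme synthesis in erythroid cells, is in addition controlled by iron through an iron-responsive element in its mRNA.

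The promoters of the genes around which the results turn are shown as the 250 bases before the start of the gene, because erythroid promoters often hold GATA motifs and CACC boxes and because these genes differed in which of the others they followed from mouse to mouse. Sequences are those of RefSeq on the build GRCm38.p6, written 5′ to 3′ on the strand of the gene. Capitals mark each match to AGATAA or TGATAA and to CCNCNCCC, searched on both strands, so that TTATCT and TTATCA are the same GATA motifs read on the other strand, and overlapping matches run together. *Alas2* (chrX:150547167-150547416, plus strand), *Bpgm* (chr6:34476106-34476355, plus strand) and *Ube2l6* (chr2:84798578-84798827, plus strand) varied together in IDA hearts. *Trim10* (chr17:36869324-36869573, plus strand), *Apol11b* (chr15:77643287-77643536, minus strand), *Rhag* (chr17:40810899-40811148, plus strand) and *Kel* (chr6:41704326-41704575, minus strand) varied with *Slc4a1*.
Alas2: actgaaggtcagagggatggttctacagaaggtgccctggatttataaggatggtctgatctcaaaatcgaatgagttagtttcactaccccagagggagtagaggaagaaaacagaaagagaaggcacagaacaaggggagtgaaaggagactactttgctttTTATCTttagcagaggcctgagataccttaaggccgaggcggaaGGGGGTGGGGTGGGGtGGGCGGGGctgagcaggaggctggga
Bpgm: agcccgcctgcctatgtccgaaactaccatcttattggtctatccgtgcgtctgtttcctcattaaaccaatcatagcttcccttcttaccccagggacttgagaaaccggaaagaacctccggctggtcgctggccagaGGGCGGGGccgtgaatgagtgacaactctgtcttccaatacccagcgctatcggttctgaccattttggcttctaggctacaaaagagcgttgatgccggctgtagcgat
Ube2l6: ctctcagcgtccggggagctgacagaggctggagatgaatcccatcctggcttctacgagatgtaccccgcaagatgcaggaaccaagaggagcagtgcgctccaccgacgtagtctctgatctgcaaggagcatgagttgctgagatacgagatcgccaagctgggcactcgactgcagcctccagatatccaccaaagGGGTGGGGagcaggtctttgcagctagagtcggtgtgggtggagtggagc
Trim10: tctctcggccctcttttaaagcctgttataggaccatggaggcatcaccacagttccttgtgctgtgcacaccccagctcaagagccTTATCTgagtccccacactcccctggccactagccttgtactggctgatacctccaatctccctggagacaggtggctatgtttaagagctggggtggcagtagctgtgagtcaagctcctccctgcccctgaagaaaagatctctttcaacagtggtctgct
Apol11b: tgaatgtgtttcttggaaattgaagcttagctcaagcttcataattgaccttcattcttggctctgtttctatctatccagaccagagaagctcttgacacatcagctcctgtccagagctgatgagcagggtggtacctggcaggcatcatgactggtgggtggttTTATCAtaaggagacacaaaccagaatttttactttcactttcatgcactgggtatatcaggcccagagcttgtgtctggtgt
Rhag: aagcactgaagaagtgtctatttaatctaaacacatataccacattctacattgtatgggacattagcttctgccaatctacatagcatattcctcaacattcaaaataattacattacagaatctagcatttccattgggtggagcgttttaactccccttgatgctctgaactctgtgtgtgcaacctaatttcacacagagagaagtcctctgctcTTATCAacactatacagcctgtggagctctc
Kel: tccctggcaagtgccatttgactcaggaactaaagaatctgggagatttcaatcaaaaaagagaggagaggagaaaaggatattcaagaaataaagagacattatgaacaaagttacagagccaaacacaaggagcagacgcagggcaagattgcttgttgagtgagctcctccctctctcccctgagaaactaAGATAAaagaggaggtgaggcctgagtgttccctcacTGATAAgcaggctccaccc

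The table of promoters held 24 of the 29 genes, and *Ank1*, *Car1*, *Cldn13*, *Nfe2* and *Slc4a1* were not among them. AGATAA or TGATAA was present in the window of 14 of the 24, and in that of 18.8% of all 27025 genes. The match lay 86 bases before the start in *Alas2*, 83 bases in *Apol11b*, 163 bases in *Trim10* and 31 bases in *Rhag*, and *Kel* held a pair of matches, at 56 and 19 bases. CCNCNCCC, a form of the CACC box, was found in 16 of the 24, against 48.5% of all genes, and *Alas2* held 4 matches that overlapped or lay close together. The composite of CTG with GATAA 8 or 9 bases apart, the arrangement bound by Tal1 together with Gata1, was found in 8 of the 24, among them *Rhag*, *Kel*, *Klf1* and *Hemgn*, against 1.47% of all genes. Both a GATA match and a CCNCNCCC match occurred in 6 of the 24 and in 5.23% of all genes. These matches describe the letters of the windows and were not tested for binding.

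Of the 29 genes, 16 reached 1 CPM in at least 10 of the 20 mice and entered the comparison of the diets by the quasi-likelihood test of edgeR with Benjamini-Hochberg adjustment over 13590 genes. In the IDA hearts 14 of the 16 were called higher and 2 lower. Over all genes tested, 35% were called higher and 32.5% lower, and since the contrast itself entered the choice of the genes, nothing is read from these counts. *Trim10*, *Apol11b*, *Icam4* and *Nfe2* owed part of their passing to the IDA group, because they reached 1 CPM in 4, 3, 5 and 8 control mice and in all 10 IDA mice. The remaining 13 genes stayed below this level and are given in counts. In whole hearts, fewer cells of a type and less RNA per cell cannot be told apart.

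*Slc4a1* encodes band 3, the anion exchanger that is the main protein of the red cell membrane (chr11:102348820-102365281, minus strand, mm10). It ranged between 1.69 and 4.19 CPM in control mice (median 2.65) and between 4.86 and 122 CPM in IDA mice (median 36.4). Every IDA mouse lay above every control mouse, and the IDA mice spread over a 25.2-fold range. The fitted log2 fold change was 4.04 (SE 0.57), with means of 2.74 ± 0.837 and 45.1 ± 41.8 CPM. *Trim10*, a tripartite motif protein of erythroid cells (chr17:36869574-36877833, plus strand), ranged from 0.373 to 1.44 CPM (median 0.818) in control and from 1.32 to 41.1 CPM (median 10.4) in IDA mice. Here 8 of 10 IDA mice exceeded the highest control mouse, and the log2 fold change was 4.21 (SE 0.66). *Apol11b*, of the apolipoprotein L family (chr15:77633951-77643286, minus strand), went from 0.447 to 1.24 CPM (median 0.721) in control to 2.36 to 113 CPM (median 23.7) in IDA mice. No values overlapped between the groups, and the log2 fold change was 5.27 (SE 0.68). Of the 16 genes, *Slc4a1*, *Apol11b* and *Ube2l6* had all IDA mice above all control mice, as did 4.97% of all genes tested.

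**Figure D1:**
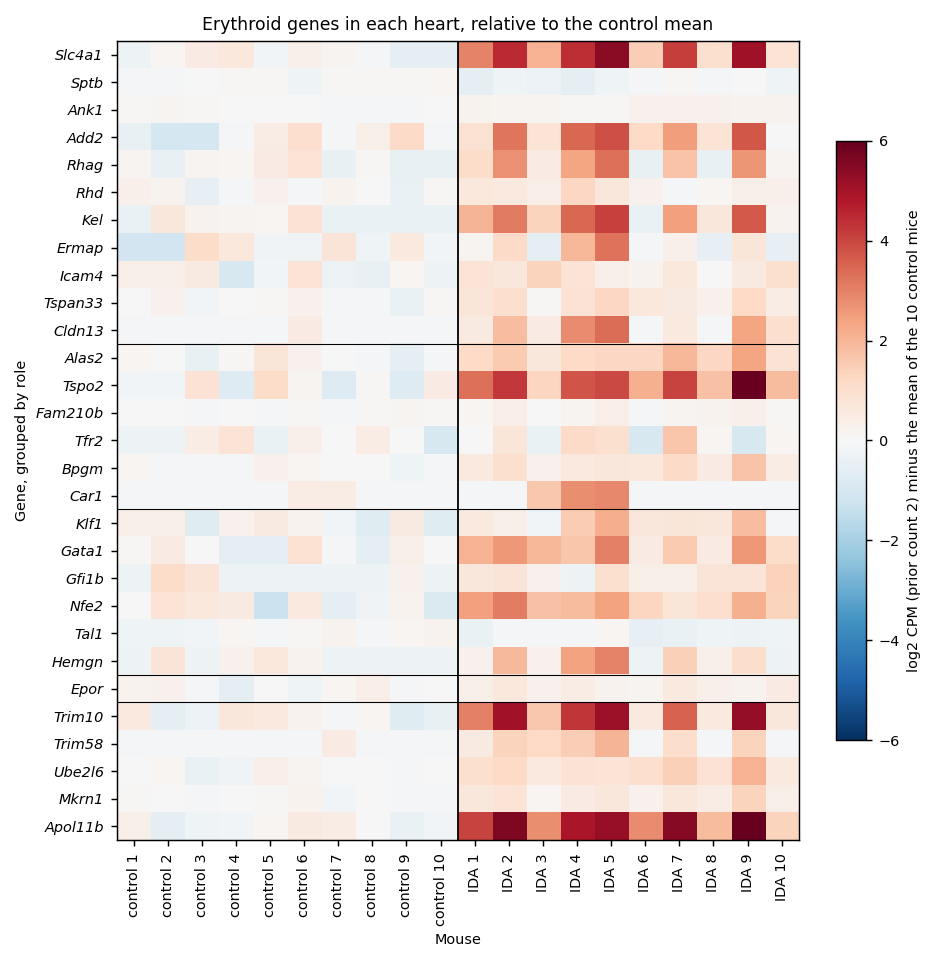
Log2 CPM of the 29 erythroid genes minus the mean of the control mice, by gene (rows, grouped by role) and mouse (columns, 10 control and 10 IDA mice). *Slc4a1*, *Trim10*, *Apol11b* and *Tspo2* stand highest in the IDA mice. *Slc4a1* and *Trim10* do so most of all in IDA 2, 5 and 9, and *Apol11b* and *Tspo2* in IDA 2, 7 and 9, whereas IDA 6, 8 and 10 are the palest for *Slc4a1*.

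The other membrane and skeleton genes ranged from abundant ones to scarce ones that were nearly absent from control hearts. *Sptb*, the beta chain of erythroid spectrin and also a gene of striated muscle, lay between 458 and 584 CPM in control (median 565) and between 375 and 578 CPM in IDA hearts (median 461). Its log2 fold change was −0.22 (SE 0.07), but this direction turned to 0.40 once the trend of each library with gene length was removed. *Ank1*, the ankyrin that ties spectrin to band 3, lay between 260 and 324 CPM (median 282) in control and 304 and 342 CPM (median 330) in IDA mice, a log2 difference of 0.19 (SE 0.04). With the length trend removed, the log2 difference of *Ank1* was 0.74 (SE 0.08). *Ank1* was also the evenest of the tested genes among IDA mice, with a coefficient of variation of 4.25%, whereas that of *Slc4a1* was 92.8%. In control hearts, however, *Ank1* stood at 33.2 and *Slc4a1* at 0.602 CPM per kilobase of exon. Which cells held the *Ank1* RNA was not tested. *Rhd*, the Rh blood group protein, was at 6.64 to 11.7 CPM (median 9.67) in control and 8.72 to 22.8 CPM (median 12.1) in IDA mice, with 7 IDA mice above the highest control and a log2 fold change of 0.49 (SE 0.14). *Tspan33*, a tetraspanin of erythroid cells, went from 4.48 to 7.31 CPM (median 6.02) to 6.33 to 14.6 CPM (median 9.83), a log2 fold change of 0.76 (SE 0.14), and 9 IDA mice exceeded the highest control. *Icam4*, the adhesion protein of the LW blood group, went from 0.393 to 1.98 CPM (median 0.989) to 1.03 to 2.98 CPM (median 1.74), and 4 IDA mice exceeded the highest control.

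*Kel*, *Rhag*, *Add2*, *Ermap* and *Cldn13* stayed below 1 CPM in most hearts. The Kell blood group metalloprotease *Kel* had 0 to 3 counts in each control mouse and 9, 19, 5, 29, 47, 0, 11, 2, 30 and 1 counts in IDA 1 to 10. Thus 7 IDA mice exceeded every control mouse, and IDA 6, 8 and 10 did not. *Rhag*, the glycoprotein that carries the Rh complex, had 0 to 3 counts in control and 4, 15, 2, 13, 27, 0, 6, 0, 14 and 1 counts in IDA 1 to 10. *Add2*, beta adducin of the spectrin junction, had 0 to 8 counts in control and 6, 34, 6, 47, 65, 7, 19, 5, 50 and 2 counts in IDA 1 to 10. IDA 5 was the highest mouse for each of these 3 genes. *Ermap*, an erythroblast membrane protein, summed to 31 counts over the control and 83 over the IDA mice, of which 43 came from IDA 5 alone. *Cldn13*, a claudin, summed to 1 count in control and 53 counts in IDA mice (ratio of depth-scaled counts 56.5, 95% exact interval 9.72 to 2275, which covers counting error only).

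Among the enzymes, *Alas2* (chrX:150547417-150570622, plus strand) ranged from 49.3 to 120 CPM in control mice (median 74.5) and from 117 to 388 CPM in IDA mice (median 177). The highest control mouse lay just above the lowest IDA mouse, and the other 9 IDA mice exceeded all control mice. The log2 fold change was 1.42 (SE 0.18). *Bpgm*, which makes the 2,3-bisphosphoglycerate that lowers the oxygen affinity of hemoglobin (chr6:34476356-34505610, plus strand), went from 59.5 to 85.3 CPM (median 68.7) to 84.5 to 228 CPM (median 108), a log2 fold change of 0.80 (SE 0.13). *Fam210b*, a mitochondrial protein of heme-forming cells, lay at 36.1 to 43.8 CPM (median 38.9) and 36.9 to 52.8 CPM (median 44.0), with a log2 fold change of 0.18 (SE 0.06). *Tspo2*, the erythroid relative of the translocator protein Tspo, had 0 to 6 counts in control mice and 33, 58, 7, 49, 56, 12, 48, 9, 194 and 10 counts in IDA 1 to 10. All 10 IDA mice therefore lay above all control mice, although *Tspo2* missed the level for testing with 9 mice at 1 CPM. *Car1*, carbonic anhydrase 1, was seen in IDA 3, 4 and 5 alone of the IDA mice, with 5, 14 and 15 counts, and summed to 2 counts in control. *Tfr2*, the second transferrin receptor, summed to 22 and 33 counts in the groups.

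The ubiquitin genes were expressed in both groups. *Ube2l6*, the enzyme that conjugates ubiquitin and the ubiquitin-like protein Isg15, lay between 31.5 and 54.8 CPM (median 41.3) in control and between 62.4 and 174 CPM (median 78.4) in IDA mice, with no overlap and a log2 fold change of 1.10 (SE 0.15). *Mkrn1*, a ubiquitin ligase, ranged from 82.6 to 105 CPM (median 89.1) and from 99.8 to 232 CPM (median 136), a log2 fold change of 0.62 (SE 0.11), and 9 IDA mice exceeded the highest control. *Trim58*, a ubiquitin ligase of maturing erythroblasts, had 1 count over all control mice and 23 counts over the IDA mice (ratio 24.5, 95% exact interval 3.98 to 1011).

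**Figure D2:**
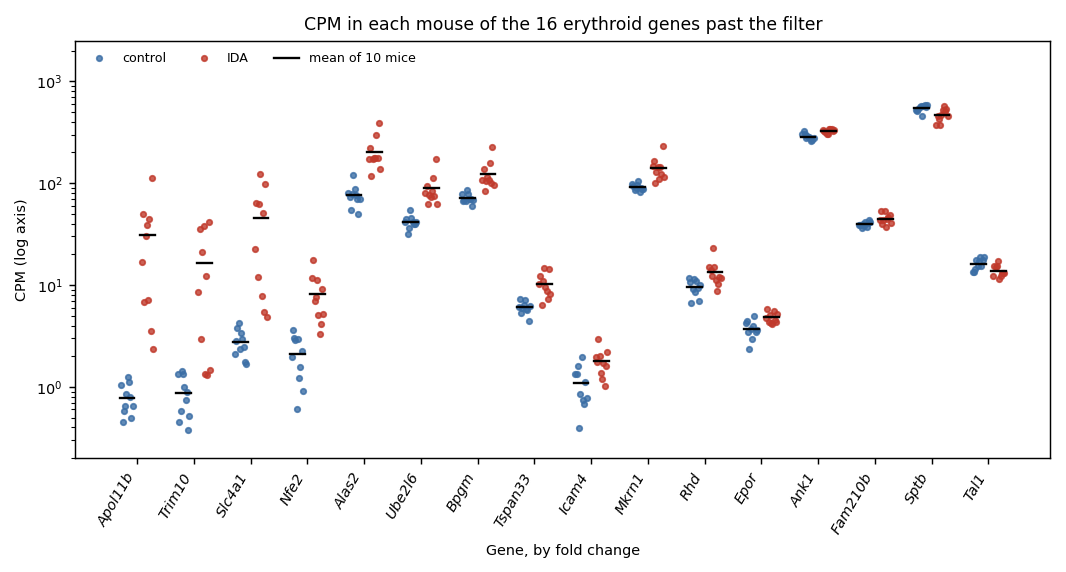
CPM (log axis) of the 16 tested erythroid genes in each control and IDA mouse, ordered by fold change, with bars at the group means. *Slc4a1* runs over 4.86 to 122 CPM among IDA mice, and *Ank1* over 304 to 342 CPM.

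The erythroid transcription factors were scarce, apart from *Tal1* and *Nfe2*. *Gata1* had 0 to 4 counts in control mice and 2 to 24 counts in IDA mice, 7 of which had more counts than any control mouse. *Klf1* summed to 15 and 47 counts, *Hemgn*, a nuclear protein of erythroblasts, to 6 and 48 counts, and the repressor *Gfi1b* to 6 and 18 counts. *Nfe2*, which acts in red cell precursors and in megakaryocytes, ranged from 0.613 to 3.58 CPM (median 2.09) in control and from 3.27 to 17.7 CPM (median 7.28) in IDA mice, a log2 fold change of 1.98 (SE 0.31). *Tal1*, which is also a gene of blood vessels, moved the other way, from 13.3 to 19.0 CPM (median 16.3) to 11.5 to 17.2 CPM (median 13.2), with a log2 fold change of −0.23 (SE 0.09) that was −0.02 after the length trend was removed. *Epor*, the erythropoietin receptor, lay at 2.36 to 4.95 CPM (median 3.66) and 4.14 to 5.75 CPM (median 4.65), a log2 fold change of 0.37 (SE 0.12).

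Levels can be compared between genes only per length. In control hearts, per kilobase of exon, *Sptb* was the most abundant of the genes at 52.7 CPM per kb, followed by *Alas2* at 38.3, *Bpgm* at 34.3 and *Ank1* at 33.2 CPM per kb. In IDA hearts *Alas2* led at 103 CPM per kb, before *Ube2l6* at 64.3 and *Bpgm* at 59.9 CPM per kb. *Apol11b* stood at 15.2, *Slc4a1* at 9.91, *Trim10* at 7.29 and *Tspo2* at 7.16 CPM per kb against levels below 1 CPM per kb in control hearts. These genes thus stayed less abundant than *Alas2* in spite of their larger fold changes.

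The IDA mice did not order alike for all genes. IDA 9 was the highest mouse for *Alas2*, at 388 CPM, and likewise for *Bpgm*, *Ube2l6*, *Mkrn1*, *Apol11b*, *Trim10* and *Tspo2*. IDA 5, the highest for *Slc4a1* at 122 CPM and for *Kel*, *Rhag* and *Add2*, stood at 177 CPM for *Alas2*, level with the group median. IDA 6 had the same 177 CPM of *Alas2* but 7.85 CPM of *Slc4a1* and 1.33 CPM of *Trim10*. Mice alike in *Alas2* could therefore differ by the larger part of the range of *Slc4a1*.

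Whether the genes varied together was examined among the 10 IDA mice by regressing every gene on log2 CPM of *Alas2* with edgeR. *Bpgm* had a slope of 0.82 (SE 0.06, adjusted p = 5.57e-05 in edgeR's quasi-likelihood test) and *Ube2l6* a slope of 0.86 (SE 0.07, adjusted p = 0.000175 in the same test), in log2 units per log2 unit of *Alas2*. These were 2 of the 15 erythroid genes tested, against 0.0515% of 13589 genes, and 6 of the 15 had an unadjusted p under 0.05, as did 3.91% of all genes. The 6 included *Trim10* and *Apol11b*, which owed their passing of the filter in part to the IDA mice. Nothing is therefore read from the count of 6. *Mkrn1* had a slope of 0.61 (edgeR adjusted p = 0.0674) and *Slc4a1* of 1.62 (edgeR adjusted p = 0.98). *Apol11b* had a slope of 2.46 and was not called. The slope of *Apol11b* carries no p-value, because this gene passed the filter through the IDA mice. Pearson's r with *Alas2* was 0.978 for *Bpgm* (permutation p = 3e-05, Spearman's rho 0.939, permutation p = 0.00023) and 0.969 for *Ube2l6* (permutation p = 4e-05, rho 0.794, permutation p = 0.00827). Without IDA 9 and IDA 7, the mice farthest from the median, r was 0.934 and 0.916. Without IDA 9 alone the slope of *Ube2l6* was 0.67, with an edgeR adjusted p of 0.0669, and *Bpgm* alone was called. Within the 7 IDA mice of the lower run of library numbers in the column names, r was 0.978 and 0.981, and the other run held 3 IDA mice, too few for a value.

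On *Slc4a1*, *Trim10* had a slope of 1.16 (SE 0.08) and *Apol11b* of 1.02 (SE 0.10), so that both changed about in proportion to it. *Slc4a1*, *Trim10* and *Apol11b* were the 3 genes selected on their rise in these same IDA mice, and the latter pair passed the filter through them, so their relation is a description and carries no p-value. They were the 2 of 15 called by edgeR, where 0.0736% of all genes were called with a positive slope, and 9 of the 15 had an unadjusted p under 0.05, as did 7.62% of all genes. *Trim10* and *Apol11b* were among these 9, and *Slc4a1* was itself selected, so nothing is read from these counts. The slope of *Alas2* itself on *Slc4a1* was 0.20 (SE 0.07, edgeR adjusted p = 0.625). Pearson's r with *Slc4a1* was 0.982 for *Trim10* (rho 0.927) and 0.955 for *Apol11b* (rho 0.855), and 0.976 and 0.914 without IDA 10 and IDA 8. *Apol11b* also followed *Alas2*, with r = 0.783 and rho 0.867, so that by rank it was as close to *Alas2* as to *Slc4a1*. *Rhag* (r 0.969) and *Kel* (r 0.964) followed *Slc4a1* in counts too low for the edgeR test. Within the lower run of library numbers r was 0.990 for *Trim10* and 0.951 for *Apol11b*. *Slc4a1* and *Alas2* themselves had r = 0.616 (permutation p = 0.0564, rho 0.685, permutation p = 0.0353). In all 56 relations were computed, to *Alas2* and to *Slc4a1*. Values of *Slc4a1* were spread along the range, with the widest gap, from 4.53 to 5.67 log2 CPM, between 5 mice on each side.

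**Figure D3:**
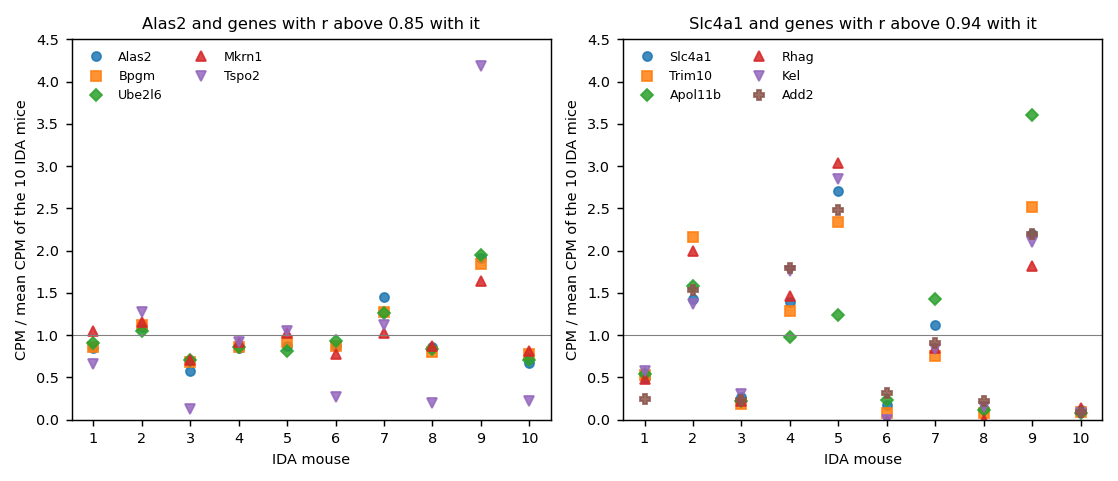
CPM of each gene in IDA mice 1 to 10 divided by its mean over the 10 IDA mice, for *Alas2* with *Bpgm*, *Ube2l6*, *Mkrn1* and *Tspo2* (left) and for *Slc4a1* with *Trim10*, *Apol11b*, *Rhag*, *Kel* and *Add2* (right). The genes of the left panel, other than *Tspo2*, move closely together and peak in IDA 9, whereas those of the right panel are above their means in IDA 2, 5 and 9 and low in IDA 3, 6, 8 and 10.

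Counted over all 28 other genes, 4 had r above 0.8 with *Alas2* in IDA mice, namely *Bpgm*, *Ube2l6*, *Mkrn1* and *Tspo2*. Over all tested genes 0.302% did, and of the 15 tested erythroid genes 3. With *Slc4a1* there were 12, namely *Trim10*, *Apol11b*, *Rhag*, *Ermap*, *Hemgn*, *Gata1*, *Tspan33*, *Kel*, *Add2*, *Cldn13*, *Trim58* and *Tspo2*, of which *Tspo2* was on both lists, while 3 of the 15 tested erythroid genes and 0.405% of all tested genes passed. Of the 12, 11 had a promoter window, and 6 of these held AGATAA or TGATAA, beside 14 of the 24 genes of the set with a window. The printed windows of *Trim10*, *Apol11b*, *Rhag* and *Kel* are among those with a match, whereas *Gata1*, *Tspan33*, *Add2*, *Trim58* and *Tspo2* had none. None of the 4 that followed *Alas2*, *Tspo2* included, held AGATAA or TGATAA (0 of 4 windows), although *Alas2* did. A link between the motif and either pattern was not tested. *Ank1* (r −0.567), *Gfi1b* (r −0.202), *Sptb* (r −0.01) and *Icam4* (r 0.02) did not rise with *Slc4a1*. Over all 406 pairs of the 29 genes in IDA mice the median r was 0.449 (from −0.94 to 0.983), so the set did not vary as a single block. The pairs share libraries, depth and scaling, and these correlations are a description.

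**Figure D4:**
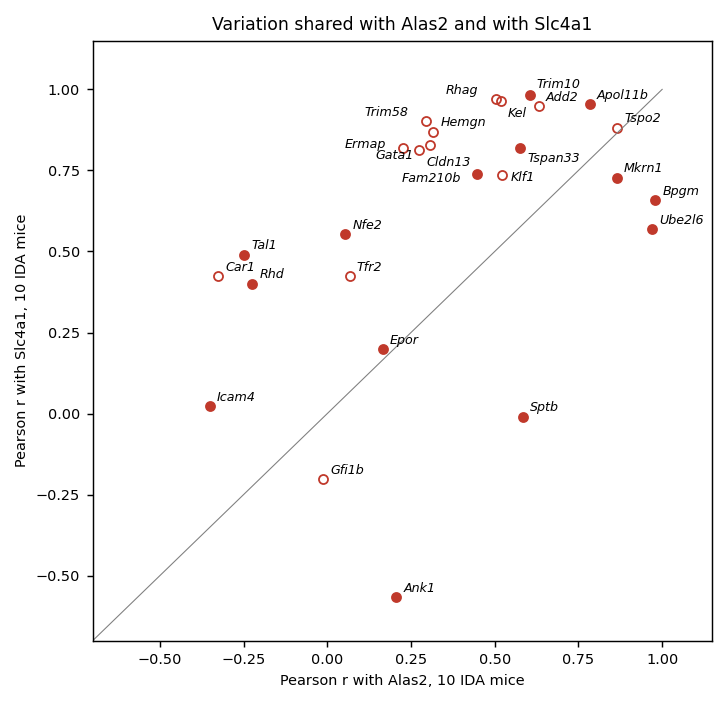
Pearson's r with *Slc4a1* (vertical) against r with *Alas2* (horizontal) among the 10 IDA mice, 1 point per erythroid gene, filled for genes that were tested and open for those below the level for testing, with the line of equal r. *Bpgm* and *Ube2l6* lie at the right with r of 0.978 and 0.969 for *Alas2*, and *Trim10*, *Rhag* and *Kel* at the top.

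In the control mice *Bpgm* had r = 0.896 and *Ube2l6* r = 0.769 with *Alas2*, with slopes of 0.37 (SE 0.08, edgeR adjusted p = 0.527) and 0.46 (SE 0.12, edgeR adjusted p = 0.572). None of the 15 genes, and 0% of all genes, was called by edgeR in control mice, where 4 of the 15 and 5.26% of all genes had an unadjusted p under 0.05. The difference of the slopes between the groups was 0.45 for *Bpgm* (SE 0.10, edgeR adjusted p = 0.478) and 0.40 for *Ube2l6* (edgeR adjusted p = 0.861), and 0 of the 15 were called, as were 0.00736% of all genes, with 4 of the 15 and 5.5% of all genes at an unadjusted p under 0.05. A difference between the groups in how these genes followed *Alas2* was therefore not shown. *Trim10* had r = 0.740 with *Alas2* in control and 0.605 in IDA mice. With *Slc4a1*, *Trim10* and *Apol11b* had r = 0.338 and 0.126 in control mice, at 3 to 11 and 3 to 10 counts per mouse. Of the 28 genes, 1 had r above 0.8 with *Alas2* and 0 with *Slc4a1* in the control mice, beside 0.339% and 0.0883% of all tested genes.

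The spread among mice was compared on log2 CPM by limma on the absolute deviations from the group medians. The mean deviation of *Slc4a1* was 0.33 in control and 1.52 in IDA mice, and those of *Trim10* were 0.44 and 1.69 and of *Apol11b* 0.30 and 1.51, which carry no p-value because these genes were selected on the same contrast. Of the 16 genes 0 were called, against 0.0515% of all genes with a larger spread in IDA mice, and 5 of the 16 and 6.96% of all genes had an unadjusted p under 0.05. The 16 included *Slc4a1*, *Trim10* and *Apol11b*, so nothing is read from the count of 5. With deviations from the group mean in place of the median, *Slc4a1* passed the threshold. Nothing is read from this, because *Slc4a1* was selected on its rise in the IDA mice.

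Genes that were no part of the set were read beside it. Of 54 further erythroid genes, 52 were in the table and 45 were tested by edgeR, of which 24 were called higher and 7 lower in IDA hearts (22 and 2 with the length trend removed). Their median log2 difference was 0.17, beside 0.02 over all genes tested. Of all genes tested, 35% were called higher and 32.5% lower (31.5% and 23.5% with the length trend removed). *Car2*, carbonic anhydrase 2 (slope 0.51), and the cell cycle factor *E2f2* (slope 0.64) followed *Slc4a1* among IDA mice (edgeR adjusted p = 0.000371 for each). *Isg20*, an interferon-induced nuclease, had the steepest slope on *Alas2* among the 7 genes called (1.51, edgeR adjusted p = 3.42e-05), and *Isg15*, which Ube2l6 conjugates, had a slope of 1.02 (edgeR adjusted p = 0.028). The globin genes gave little: *Hba-a1* and *Hbb-b2* were at 0 counts in every mouse and *Hbb-b1* had 1 and 2 counts in the groups, while *Beta-s*, a beta-globin entry, was at 40.2 ± 4.18 and 48.8 ± 5.46 CPM, a log2 difference of 0.28 that was −0.07 with the length trend removed. Near-identical globin copies share reads, and the counting could have split or dropped them, so these values are uncertain.

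Broadly expressed relatives of the erythroid genes were listed beside them. Of 23 tested, 9 were called higher and 8 lower by edgeR, near the 35% and 32.5% of all genes tested. Nothing is read from these counts. *Alas1*, the housekeeping form of the heme enzyme, had a log2 difference of 0.22, beside 1.42 for *Alas2*. *Slc4a2* and *Slc4a3*, other anion exchangers, were both at 0.13, beside 4.04 for *Slc4a1*, and *Ube2l3* was at 0.21 beside 1.10 for *Ube2l6*. Larger differences as fitted were those of *Klf3* at −1.30 and *Klf2* at 0.45, relatives of *Klf1*. *Car2*, a relative of *Car1*, was at 1.23 and *Tspo*, a relative of *Tspo2*, at 0.54. With the length trend removed, *Slc4a2* was at 0.34, *Slc4a3* at 0.37, *Klf2* at 0.30 and *Tspo* at 0.22. *Klf3* was then at −1.36 and *Car2* at 1.08. *Mkrn2* was at 0.04 (edgeR, −0.03 with the length trend removed) beside 0.62 for *Mkrn1*. *Ank2* and *Ank3*, long skeleton genes, were at −0.51 and −0.59, but at −0.02 and 0.05 once the length trend was removed. The relatives then counted 12 higher and 3 lower, beside 31.5% and 23.5% of all genes.

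Markers of other blood cells were counted as well, beside 35% of all genes tested called higher and 32.5% called lower. The directions of the platelet, neutrophil and lymphocyte counts held with the length trend removed. Platelet and megakaryocyte markers were called higher in 14 of 15 tested and lower in 0, and their summed level lay between 89.9 and 236.2 CPM in control hearts and between 173 and 716 CPM in IDA hearts. Neutrophil markers were called higher in 5 of 7 tested, with a sum of 13.5 to 42.1 CPM in control and 20.8 to 206 CPM in IDA mice, while 2 of the listed granule genes, *Elane* and *Mpo*, were near 0 with 5 and 16 counts over the control and 6 and 21 counts over the IDA mice. Other granule genes were higher in counts, as *Ltf* with 82 and 364, *Ngp* with 145 and 505 and *Camp* with 15 and 86 counts over the groups. B and T cell markers were called higher in 4 of 5 tested (9.32 to 14.5 and 10.8 to 39.3 CPM), macrophage markers higher in 4 and lower in 3 of 11 (702 to 803 and 678 to 873 CPM), and proliferation markers higher in 1 of 9 (77.4 to 160 and 82.6 to 135 CPM). The macrophage counts lay near the shares over all genes, and nothing is read from them. Among IDA mice, *Slc4a1* had r = 0.672 with the neutrophil sum and 0.06 with the platelet sum, *Alas2* had r = −0.10 and −0.35, and *Nfe2* had r = 0.638 and 0.757. The part of these cells, or of blood left in the tissue, in the erythroid values was not tested.

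The libraries also differed in how counts depended on gene length. The slope of each library's deviation on log2 exon length ran from 0.0205 to 0.199 in control and from −0.254 to −0.0252 in IDA mice, without overlap. With this trend removed, *Slc4a1* was at 4.26, *Trim10* at 4.14, *Apol11b* at 5.17 and *Alas2* at 1.304 on the log2 scale, and 12 of the 16 erythroid genes were called higher and 0 lower (31.5% and 23.5% of all genes), with *Sptb* at 0.40 and *Ank1* at 0.74. *Rhd*, *Tal1*, *Epor* and *Icam4* were then not called. Among IDA mice the length slope had r = 0.423 with *Slc4a1* and 0.242 with *Alas2*, and its part in the differences was not tested. Duplicate removal caps counts per base, and the fullest gene of each library held 2.06 to 2.39 counts per base, whereas *Alas2* reached 1.36 at most. Within the lower and the higher run of library numbers, *Slc4a1* had log2 fold changes of 4.36 and 3.40, *Alas2* of 1.63 and 1.05, and *Bpgm* of 0.92 and 0.57. Of the 16 genes, 12 and 11 were called within the runs, and 16 with the run as a covariate. The shares over all genes are not given for these fits, so nothing is read from the counts.

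**Figure D5:**
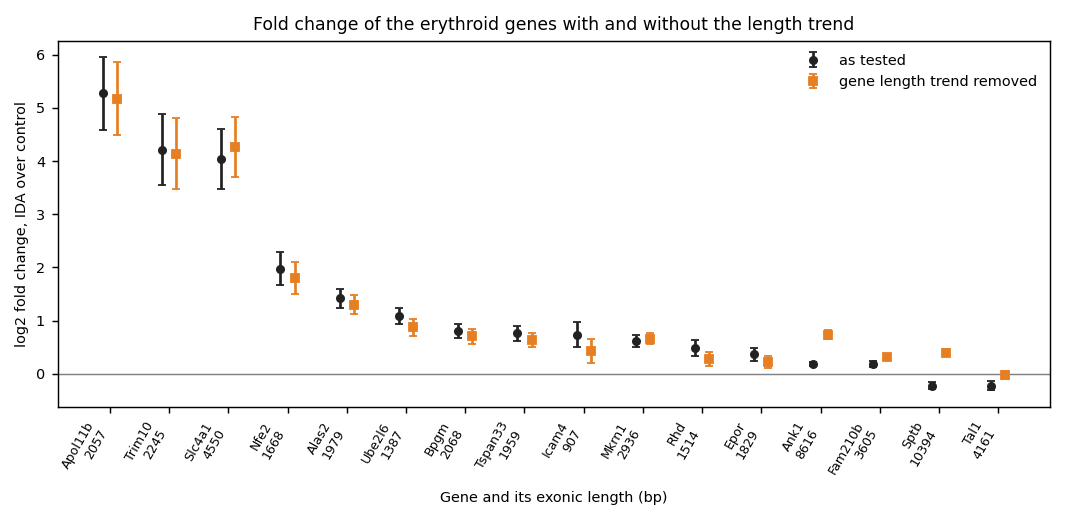
Log2 fold change (IDA over control) of the 16 tested erythroid genes as fitted and with the length trend of each library removed, with SE bars. *Slc4a1* goes from 4.04 to 4.26, whereas *Sptb* crosses 0, from −0.22 to 0.40.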

How the data were processed

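RNA-seq was made from 20 whole hearts. The authors selected poly(A) RNA, sequenced paired reads, used STAR for alignment to mm10, discarded PCR duplicates and counted with featureCounts (version 1.4.5-p1 in the header of the table). The deposited values are whole counts of read pairs per gene, without normalization, with exonic lengths. Mice were grouped by the labelled diet. The 29 genes and all lists were chosen with earlier results of these data known.

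Counts were scaled by TMM, genes reaching 1 CPM in 10 or more mice were kept (13590 of 23420), and the diets were compared by the quasi-likelihood test of edgeR 4.0.16 in R 4.3.3, unpaired, with Benjamini-Hochberg adjustment at 0.05. The filter used unscaled CPM, and printed CPM are TMM-scaled. Within a group every gene was regressed on log2 CPM (prior count 2) of *Alas2* or *Slc4a1* by the same test. Spread was compared by limma 3.58.1. Pearson's r and Spearman's rho on log2 CPM had two-sided permutation tests (100000 resamples). The length trend was a loess fit (span 0.5) of each library's deviations on log2 exonic length. DESeq2 1.42.0, other filters, scaling and omitted mice were alternatives. Named genes were the 29 members, the genes called on *Alas2* or *Slc4a1*, and listed relatives and markers, of which some are not reported here. The fits of the group difference, of the slope on another gene and of the spread were tested on simulated data. Depth was 6682177 to 8960688 read pairs per library, and p-values measure the spread between mice. All 29 genes had exons that overlapped no other gene in the annotation used. Replicate numbers did not pair the mice: correlations of deviations between same-numbered mice ran from −0.278 to 0.264, and 3 of 10 exceeded 0.1.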

Additional observations from a re-analysis of the deposited data

Results flagged for a closer look

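Among 58 groups of 10 mice, 1 per gene and diet, 9 had a highest mouse that stood apart from the others by Dixon's criterion. A single count among zeros meets this criterion by construction, so the number flagged is not set against chance. IDA 9 was that mouse for *Apol11b* at 113 CPM (next mouse 49.4), for *Bpgm* at 228 CPM (next 158), for *Ube2l6* at 174 CPM (next 113), for *Mkrn1* at 232 CPM (next 163) and for *Tspo2* at 28.0 CPM (next 8.56). For *Rhd* it was IDA 4 at 22.8 CPM (next 15.0), and for *Ermap* IDA 5 at 5.37 CPM (next 2.12). A single count in control 6 gave 0.124 CPM of *Cldn13*, and a single count in control 7 gave 0.123 CPM of *Trim58*, where the other control mice had 0.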

How the results depend on the processing

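The results were refitted under alternatives. Of the counts of called genes, 203 refits stayed within 1.5 times and 5 moved, and of the values of single genes 1129 kept their side of the threshold, 17 lost it, 3 gained it and 1 reversed. Of the 16 erythroid genes called between the diets, 15 to 16 were called when any 1 mouse was left out, 16 by DESeq2, 14 at a p under 0.01 in both tools, 12 with the length trend removed and 15 with the replicate block, under which *Tal1* (−0.22) was lost. Without any filter 26 of 29 were called, and 21 with at least 10 read pairs in 3 mice. Both of these settings admit genes, such as *Kel*, whose counts lay mainly in the IDA mice. In the main fit 35% of all genes were called higher and 32.5% lower. Shares over all genes are not given for most refits, so nothing is read from these counts about the set. *Sptb* reversed to 0.40 with the length trend removed. Other erythroid genes ran from 28 to 32, relatives from 16 to 19 and markers of other cells from 41 to 50 with 1 mouse left out, and were 30, 16 and 43 with the replicate block. For slopes on *Alas2* in IDA mice, 1 to 3 genes were called with 1 mouse left out, 1 without IDA 9 (also the lone mouse above the widest gap in *Alas2*) and 0 with *Klf1* as index, and the causes were not tested. Adding log2 library size to the fit gave *Apol11b* a slope of 3.49. That slope is given without a test, since *Apol11b* was selected on its rise in these mice and owed its passing of the filter to them. Without IDA 7, *Mkrn1* passed (slope 0.70, adjusted p = 0.0134 in edgeR), and without control 10 *Tal1* was not called (−0.20). Calls on *Alas2* in control mice, on the difference of slopes and on the spread were 0 to 0 with 1 mouse left out. With deviations from the group mean the spread gave 1, *Slc4a1* (1.19), a gene selected on its rise, so nothing is read from it. Refits by run of library numbers were chosen after seeing the data, and of the named genes *Sptb*, *Epor*, *Icam4* and *Fam210b* were lost in the lower run and *Rhd*, *Tal1*, *Ank1*, *Epor* and *Fam210b* in the higher. The 13 genes below the filter rest on few counts, which limits what they show.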

Other observations

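Genes outside the 29 whose log2 CPM followed *Alas2* most closely among the IDA mice, beside those given with the slopes, were *Ccndbp1* (r 0.967), *Rsad2* (r 0.957), *Ube2o* (r 0.941), *Fam220a* (r 0.909), *Bnip3l* (r 0.894), *Cbx7* (r 0.892), *Fam213a* (r 0.884) and *4933413J09Rik* (r 0.883). Of these, *Ccndbp1*, *Rsad2* and *Ube2o* were called by the slope on *Alas2*. The others were not, with an edgeR adjusted p of 0.662 for *Fam220a* and 0.148 for *Bnip3l*. Ube2o is a ubiquitin enzyme of reticulocytes, and Bnip3l takes part in the clearance of mitochondria from them. *Rsad2*, an interferon-induced gene, had means of 82.9 ± 12.4 CPM in control and 84.8 ± 30.2 CPM in IDA hearts (n = 10 each), so it followed *Alas2* among IDA mice without a difference in mean that passed the edgeR test (log2 difference 0.03, adjusted p = 0.871). *Ube2o* was at 123 ± 10.3 and 170 ± 58.0 CPM. Outside the 29, genes that followed *Slc4a1* closely were *Specc1* (r 0.974, with means of 10.01 and 22.0 CPM), *Fam46c* (r 0.966, means 3.19 and 11.05 CPM) and *E2f2* (r 0.963, means 2.15 and 12.6 CPM). *Cd24a*, a surface protein of erythroid and other immature blood cells, had r = 0.908 and stood at 9.34 ± 2.14 and 35.6 ± 25.4 CPM. *Slc25a37*, the mitochondrial iron importer of erythroid cells, had a slope of 0.29 on *Slc4a1* (edgeR adjusted p = 0.0295). *Epb4.2*, protein 4.2 of the red cell membrane, was below the level for testing with 15 counts over the control and 367 counts over the IDA mice. Of the other erythroid genes called lower, *Foxo3*, a transcription factor, had a log2 difference of −1.14, which was −1.11 once the length trend was removed.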
